A study of Mus musculus with 4 samples.

Results

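Ribosome footprints of 8 enzymes of cholesterol synthesis (Hmgcs1, Idi1, Fdps, Fdft1, Sqle, Lss, Cyp51 and Dhcr7) were compared between testes of control mice and of mice with a germ-cell deletion of Eif5. The genes were chosen by name, as steps between mevalonate formation and cholesterol, and all 8 were found among the 14984 genes of the deposited table. The series holds 4 mouse testis libraries from day 10, 2 from control animals and 2 from Eif5 cKO animals, in which a floxed Eif5 allele (Eif5fl/fl) was recombined by Stra8-Cre. Eif5 encodes a translation initiation factor that helps the scanning ribosome commit to a start codon. Stra8-Cre is known to act in germ cells, so Sertoli, Leydig and other somatic cells of the same tissue are taken to keep the gene. No label states the alleles of the controls, the strain, or whether the libraries of a group came from separate animals. The p-values therefore cover the spread among these 4 samples, and that spread may be technical.

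Cholesterol is built in the endoplasmic reticulum and cytosol from acetyl-CoA through mevalonate, isoprenoid units, squalene and lanosterol. The pathway is controlled as a unit by SREBP-2, a membrane-bound transcription factor that is released for the nucleus when sterols are low and binds sterol regulatory elements near its target genes, usually beside CCAAT boxes bound by NF-Y. In the testis, Leydig cells convert cholesterol to testosterone, Sertoli cells handle lipid for the germ cells they support, and germ cells themselves make sterol intermediates. Hmgcs1 forms the HMG-CoA from which mevalonate is made, Idi1 interconverts the isoprenoid units, Fdps joins them to farnesyl diphosphate, and Fdft1 joins farnesyl units to squalene. Sqle adds the oxygen to squalene, Lss closes the rings to lanosterol, Cyp51 removes a methyl group from lanosterol, and Dhcr7 reduces the last sterol precursor to cholesterol.

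The sequences before the start sites of 3 enzymes are given because the results below turn on these genes: Hmgcs1 had the most reads, Cyp51 was the tested enzyme whose groups did not overlap, and Lss had the largest difference. Each is the 250 bases before an annotated start, 5′ to 3′ on the gene's strand, from RefSeq on GRCm38.p6. They cover chr13:119690101-119690350 (plus strand) for Hmgcs1, chr5:4104698-4104947 (minus strand) for Cyp51 and chr10:76531355-76531604 (plus strand) for Lss. Capitals mark matches to the sterol element pattern TCACNNCA and to CCAAT, on either strand.
Hmgcs1: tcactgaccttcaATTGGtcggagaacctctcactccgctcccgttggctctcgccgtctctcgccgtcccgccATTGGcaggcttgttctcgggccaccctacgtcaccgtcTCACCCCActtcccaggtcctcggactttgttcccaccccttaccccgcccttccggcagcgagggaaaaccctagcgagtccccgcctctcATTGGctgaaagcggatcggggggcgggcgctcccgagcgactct
Cyp51: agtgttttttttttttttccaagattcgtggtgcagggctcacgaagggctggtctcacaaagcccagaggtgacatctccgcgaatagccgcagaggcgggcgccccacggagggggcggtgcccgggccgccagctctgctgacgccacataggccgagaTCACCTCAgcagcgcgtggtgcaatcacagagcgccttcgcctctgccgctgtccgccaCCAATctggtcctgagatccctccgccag
Lss: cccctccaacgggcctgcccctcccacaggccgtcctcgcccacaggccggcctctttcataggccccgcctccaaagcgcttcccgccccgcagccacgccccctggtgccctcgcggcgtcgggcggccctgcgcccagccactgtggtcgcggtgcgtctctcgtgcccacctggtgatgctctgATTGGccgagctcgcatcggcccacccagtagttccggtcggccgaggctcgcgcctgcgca
The Hmgcs1 window held TCACCCCA 137 bases before the start and 3 CCAAT matches. The Cyp51 window held TCACCTCA 88 bases before the start and a CCAAT match 29 bases before it. The Lss window held a CCAAT match 62 bases before the start and no match to the sterol element pattern. This window ends at base 76531604, but the gene as given below begins at 76531565. The end of the window thus lies inside the gene, and bases further upstream than the window were not searched.

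RefSeq windows were matched for 5 of the 8 enzymes (Hmgcs1, Idi1, Lss, Cyp51 and Dhcr7), 7 windows in all since Dhcr7 has 3 annotated starts. Of these windows, 1 of 7 held the stricter sterol element core TCACNCCA, against 3.67% of 32817 promoter windows of the same length. The relaxed pattern TCACNNCA, which includes every match of the core, was found in 4 of 7 windows, against 11.4%. CCAAT was found in 5 of 7 windows, at least 1 for each of the 5 genes, against 33.8%, and the GC box GGGCGG in 6 of 7, against 32.7%. The E-box CACGTG was found in 1 of 7 windows, before the middle start of Dhcr7, against 6.02%. Both strands were searched, the motifs were chosen with these sequences in view, and a match describes letters, not binding.

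**Figure D1:**
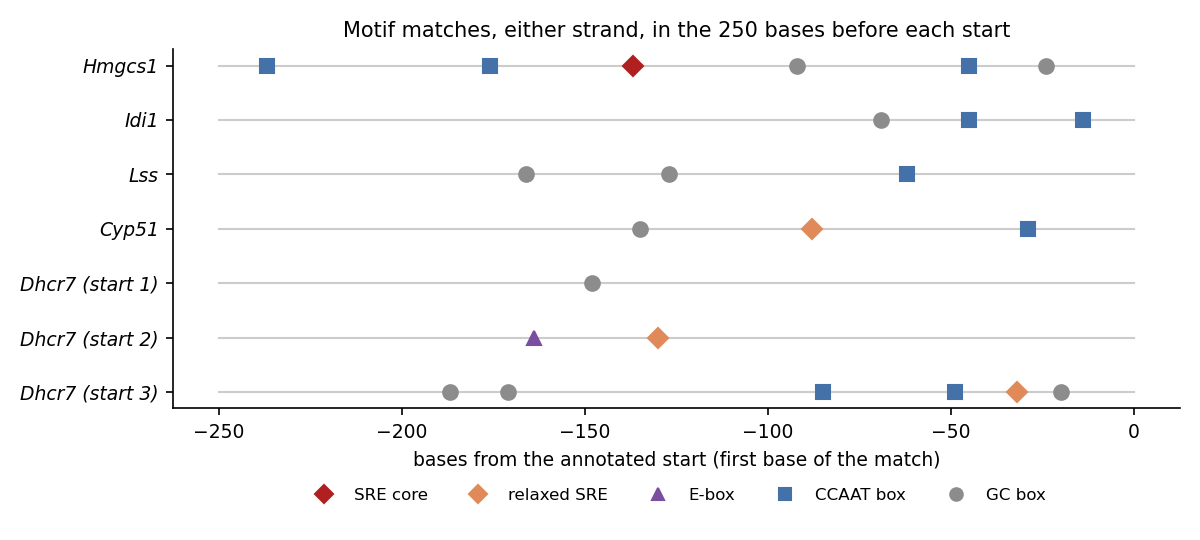
Positions of motif matches on either strand in the 250 bases before each annotated start of 5 enzymes (x axis: bases from the start to the first base of the match; 1 line per start). CCAAT matches appear before every gene, at 1 of the 3 starts of Dhcr7, and sterol element matches appear before Hmgcs1, Cyp51 and 2 starts of Dhcr7.

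The libraries held 2225964 to 2934609 reads assigned to genes. Eif5 had deposited values (reads divided by a size factor of the library) of 365 and 304 in control against 173 and 266 in Eif5 cKO, lower in both knockout libraries without passing the test (log2 fold change -0.63, SE 0.25, adjusted p = 0.319 by limma with Benjamini-Hochberg adjustment over all genes). Over all 12095 genes tested, limma called 82 genes at an adjusted p under 0.05, or 0.678%. Of these, 73 were lower (0.604%) and 9 were higher (0.0744%) in Eif5 cKO. The number called was 10 without control replicate 1, 20 without control replicate 2, 127 without Eif5 cKO replicate 1 and 346 without Eif5 cKO replicate 2. The smallest two-sided p from permuting labels of 2 against 2 libraries is 0.333, and the calls rest on the variance that limma pools over genes. In whole testes, fewer cells of a type and fewer footprints per cell cannot be told apart.

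None of the enzymes passed the test. Of the 8, 7 had enough reads to be tested and 0 were called higher or lower by limma (0.678% of all tested genes, 0.0744% higher and 0.604% lower), and 0 had an unadjusted p under 0.05, a threshold that 10.6% of all tested genes met. On the recovered reads, edgeR, DESeq2 and limma-voom called 0 of the 7 as well, while calling 0.761%, 0.704% and 0.827% of genes overall (DESeq2 gave no adjusted p for Fdps). The log2 fold changes of the 7 ran from -0.64 (Lss) to 0.21 (Cyp51), with a median of -0.11 against 0.0032 for all tested genes. The enzyme median became 0.0062 when control replicate 1 was left out and 0.088 when Eif5 cKO replicate 1 was, so its sign rested on single libraries. The signs were 2 positive and 5 negative. For 6 of the 7 the groups overlapped. Groups stood apart for 40.8% of all tested genes, 20% higher and 20.9% lower in Eif5 cKO.

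**Figure D2:**
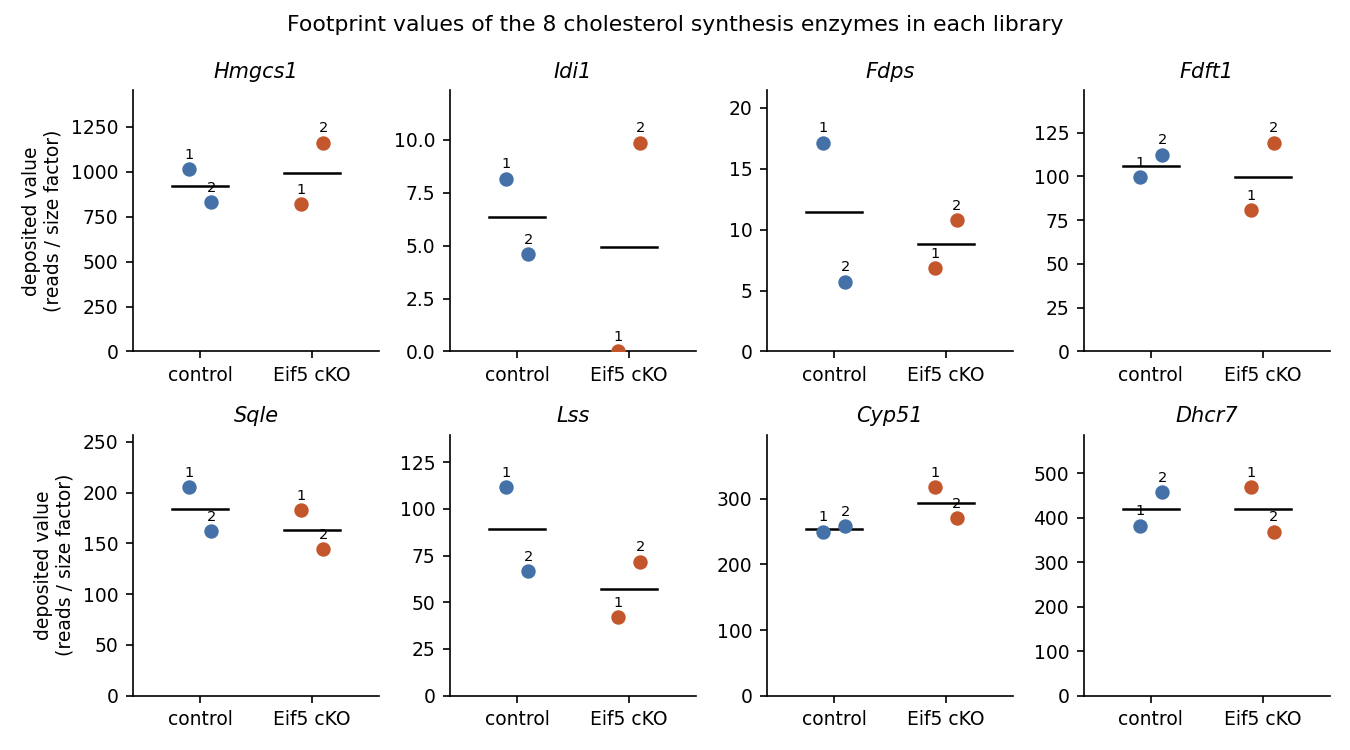
Deposited values (y axis, reads divided by the library's size factor; scales differ by gene and start at 0) of each enzyme in 2 control (blue) and 2 Eif5 cKO (orange) libraries, numbered by replicate, with the group mean as a bar. The groups overlap for every enzyme except Cyp51.

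Hmgcs1 (chromosome 13, 119690351 to 119708260 on GRCm38), the cytosolic HMG-CoA synthase at an early step of the pathway, had control values of 1014 (replicate 1) and 831 (replicate 2) and knockout values of 819 (replicate 1) and 1162 (replicate 2). Values of the other genes are given in the same order of replicates. The lowest and the highest value both belonged to the knockout group. The mean was 923 ± 130 (SD, n = 2) for the controls and 990.5 ± 242 (SD, n = 2) for the knockouts, a log2 fold change of 0.09 (SE 0.23, 95% interval -0.38 to 0.56, limma adjusted p = 0.935). The interval ran from 0.767-fold to 1.47-fold. With 3983 reads over the 4 libraries, Hmgcs1 was the most deeply read of the 8.

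Idi1 (chromosome 13, 8885606 to 8892396), isopentenyl-diphosphate isomerase, had 10 and 4 reads in control and 0 and 11 in Eif5 cKO. These correspond to values of 8.16, 4.59, 0 and 9.87. The 0 in Eif5 cKO replicate 1 allows up to 3 reads, a value of 3.41, by counting error alone. Idi1 did not pass the filter on low counts and was not tested in the main fit. With no filter, 0 of the 8 enzymes were called by limma and their median log2 fold change was -0.14. At 25 reads in all, a difference between groups was not detectable at this depth.

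Fdps (chromosome 3, 89093588 to 89101967), farnesyl diphosphate synthase, had values of 17.1 and 5.74 in control against 6.82 and 10.8 in Eif5 cKO, from 44 reads in all. The spread within the controls covered both knockout values. The log2 fold change of -0.21 had an SE of 0.91 and a 95% interval of -2.05 to 1.64 (limma adjusted p = 0.964), so that differences from 4.14-fold lower to 3.12-fold higher lay within it. How reads matching several places were counted is not stated, so the low counts of Idi1 and Fdps are not read as low translation.

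Fdft1 (chromosome 14, 63145150 to 63181687), squalene synthase, had values of 99.6 and 112 in control against 80.7 and 119 in Eif5 cKO. The knockout libraries lay on either side of both controls. Its log2 fold change of -0.11 had an SE of 0.31 (95% interval -0.73 to 0.52, limma adjusted p = 0.940). The annotation of Fdft1 overlaps that of the lysosomal protease gene Ctsb by 774 bases, and Ctsb had values of 1533 to 2308. How reads in the overlap were assigned is not stated.

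Sqle (chromosome 15, 59315092 to 59331193), squalene epoxidase and a controlled step of the sterol part of the pathway, had values of 206 and 162 in control against 183 and 144 in Eif5 cKO. Replicate 1 was above replicate 2 in both groups, and the groups interleaved. The means were 184 ± 31.0 and 164 ± 27.2 (SD, n = 2 each), with a log2 fold change of -0.17 (SE 0.27, 95% interval -0.70 to 0.37, limma adjusted p = 0.876).

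Lss (chromosome 10, 76531565 to 76557139), lanosterol synthase, showed the largest difference among the tested enzymes. Its values were 112 and 66.6 in control against 42.0 and 71.8 in Eif5 cKO. Eif5 cKO replicate 2 lay above control replicate 2, so the groups overlapped. The mean went from 89.2 ± 32.0 to 56.9 ± 21.0 (SD, n = 2 each). The fitted log2 fold change was -0.64 (SE 0.37, 95% interval -1.38 to 0.10), or 1.56-fold lower in Eif5 cKO. The limma adjusted p was 0.565, and over the alternatives it ran from 0.156 to 0.982, lowest without Eif5 cKO replicate 2. The log2 fold change was -0.27 without control replicate 1, -1.01 without control replicate 2, -0.26 without Eif5 cKO replicate 1 and -1.02 without Eif5 cKO replicate 2. The gene rested on 312 reads, and the lncRNA gene 4930483K19Rik overlaps it by 11269 bases.

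Cyp51 (chromosome 5, 4080674 to 4104697), lanosterol 14-alpha demethylase, was the tested enzyme whose groups did not overlap. It had values of 249.7 and 258 in control against 318 and 270.1 in Eif5 cKO. Both knockout libraries were above both controls, as for 20% of all tested genes. The means were 254 ± 6.04 and 294 ± 34.0 (SD, n = 2 each), 1.15-fold higher in Eif5 cKO, with a log2 fold change of 0.21 (SE 0.24, 95% interval -0.28 to 0.69, limma adjusted p = 0.819). With the libraries scaled on Sertoli cell genes the sign turned, to -0.21.

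Dhcr7 (chromosome 7, 143823167 to 143848410), 7-dehydrocholesterol reductase, had values of 382 and 457 in control against 469 and 369 in Eif5 cKO. The knockout values enclosed the control values. The means were 419 ± 53.0 and 419 ± 71.0 (SD, n = 2 each), with a log2 fold change of -0.0061 (SE 0.23, 95% interval -0.48 to 0.46, limma adjusted p = 0.995). The interval ran from 0.719-fold to 1.38-fold.

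**Figure D3:**
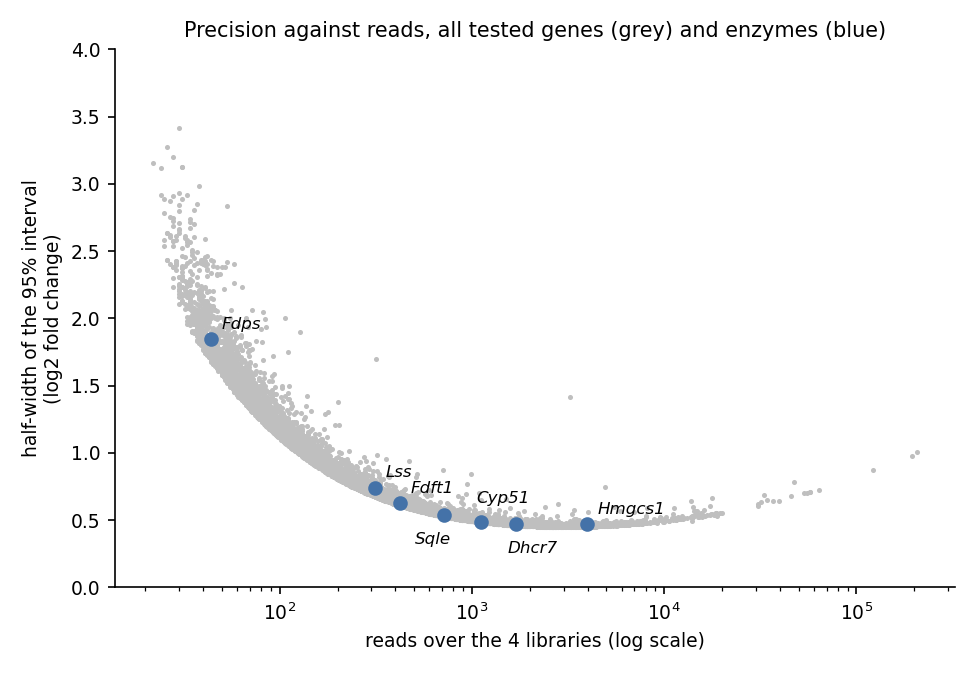
Half-width of the 95% interval of the log2 fold change (y axis) against reads over the 4 libraries (x axis, log scale) for all 12095 tested genes (grey) and the 7 tested enzymes (blue). Hmgcs1, Dhcr7, Cyp51, Sqle and Fdft1 lie on the flat part of the curve, Lss at its bend, and Fdps, with 44 reads, on the steep part.

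The spread within groups was as wide as the differences between them. The libraries of the Eif5 cKO group differed from each other by more than the group means did for 7 of 7 tested enzymes, against 57.1% of all tested genes, and the controls did so for 6 of 7, against 52.5%. The median absolute log2 difference was 0.17 between groups. It was 0.29 within the controls and 0.50 within the knockouts. For all tested genes the medians were 0.30 between groups, 0.32 within the controls and 0.37 within the knockouts. A difference between means of 2 libraries varies less, by construction, than one between single libraries. The enzymes did not follow a common order over the libraries. Hmgcs1 and Fdft1 were highest in Eif5 cKO replicate 2, Cyp51 and Dhcr7 in Eif5 cKO replicate 1, and Fdps, Sqle and Lss in control replicate 1.

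Summed over the 8 genes, the enzymes took 0.0872% of reads in control replicate 1 (95% Wilson interval 0.0839% to 0.0906%) and 0.0743% in control replicate 2 (0.0708% to 0.0779%). They took 0.0735% in Eif5 cKO replicate 1 (0.0701% to 0.0771%) and 0.0864% in Eif5 cKO replicate 2 (0.0830% to 0.0899%). These intervals cover counting error only. The group means were 0.0807% ± 0.00915 and 0.0800% ± 0.00910 (SD, n = 2 each), and each group held a higher and a lower library. The higher share stood in the deeper library of each group, and Hmgcs1 supplied 42.7% to 53.9% of the enzyme reads. Within 19 mevalonate and sterol genes analysed, a ratio that does not depend on the scaling of libraries, the 8 enzymes took 59.5% and 55.6% in control against 54.3% and 59.3% in Eif5 cKO.

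The median centred profile of the 7 tested enzymes over the 4 libraries was 0.10 and -0.079 in control against -0.21 and 0.058 in Eif5 cKO on the log2 scale. The genes with the closest profile were Scamp2, a secretory carrier membrane protein, the centromere gene Cenpp, the annexin Anxa2, the ubiquitin ligase gene Rlim and the unconventional myosin gene Myo1d, with root mean square differences of 0.033 to 0.038. Of 7798 genes compared, 382 lay within 0.1 of the profile, so many genes were about as close as these 5. The enzymes themselves lay 0.13 (Hmgcs1) to 0.46 (Fdps) from it.

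The other steps of the pathway were likewise not called. Of 11 further mevalonate and sterol genes analysed, all were tested and 0 passed in either direction by limma, edgeR, DESeq2 or limma-voom. Since limma called 0.678% of all tested genes, a count of 0 in so short a list is near that share. Of the 11, 1 had an unadjusted p under 0.05, which 10.6% of all tested genes met. Their median log2 fold change was 0.12. It was negative when control replicate 1 (-0.091) or Eif5 cKO replicate 1 (-0.25) was left out, with scaling on Sertoli cell genes (-0.31) and over the 9 genes with at least 50 reads in 2 libraries (-0.060). Ebp, the sterol isomerase, had the smallest p of these 11, with values of 171 and 199.7 in control against 283 and 284 in Eif5 cKO. Both knockout libraries were higher, with a log2 fold change of 0.61 (SE 0.25, 95% interval 0.11 to 1.11), and the adjusted p of 0.330 by limma missed the threshold. Sc5d, the sterol desaturase that acts just before Dhcr7, had 104 and 148 in control against 99.97 and 104 in Eif5 cKO. Its log2 fold change was -0.28 (SE 0.30, limma adjusted p = 0.791).

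**Figure D4:**
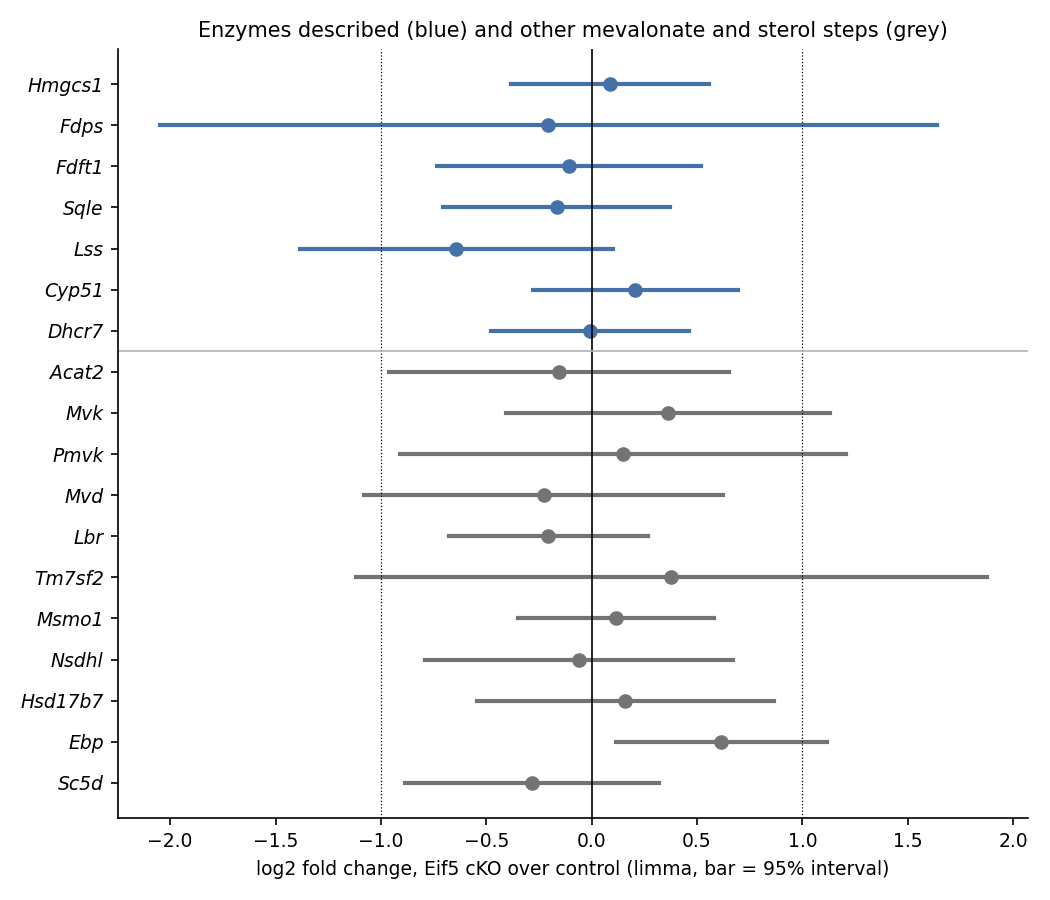
Log2 fold change of Eif5 cKO over control (points) with its 95% interval from limma (bars) for the 7 tested enzymes (blue, in pathway order) and 11 other mevalonate and sterol genes (grey); dotted lines mark a log2 change of 1 either way. The intervals of the 7 enzymes all include 0, and those of Fdps and Lss extend beyond -1.

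Genes that sense sterol and process SREBP were not called either, with 0 of 12 passing in limma, edgeR, DESeq2 or limma-voom. The share of all tested genes called by limma was 0.678%. Of the 12, 1 had an unadjusted p under 0.05, which 10.6% of all tested genes met, and the median log2 fold change was 0.18. That median was -0.023 without control replicate 1, 0.072 without Eif5 cKO replicate 1 and -0.24 with scaling on Sertoli cell genes. Groups stood apart for 5 of the 12, 3 higher and 2 lower, against 40.8% of all tested genes. Mbtps1, the site-1 protease that makes the first cut in SREBP, had values of 706 and 869 in control against 1373 and 980 in Eif5 cKO (log2 fold change 0.57, SE 0.23, limma adjusted p = 0.338). Rnf139, a sterol-responsive ubiquitin ligase, had 98.7 and 111 in control against 158 and 127 in Eif5 cKO (0.43, SE 0.29, adjusted p = 0.637). Srebf2, which encodes SREBP-2 and was named for its role after its values were seen, had 546 and 510 in control against 492 and 432 in Eif5 cKO (-0.19, SE 0.23, adjusted p = 0.820). None of the 3 passed.

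In the list of cholesterol uptake, transport and storage, 0 of 17 tested genes passed in limma, edgeR, DESeq2 or limma-voom. Among all tested genes, limma called 0.678%. Of the 17, 3 had an unadjusted p under 0.05, which 10.6% of all tested genes met, and the median log2 fold change was 0.16. Leaving out 1 library moved that median to between 0.025 (control replicate 1) and 0.37 (control replicate 2), with 0.092 without Eif5 cKO replicate 1 and 0.28 without Eif5 cKO replicate 2, and Sertoli scaling to -0.25. Lrp8, a lipoprotein receptor that binds apolipoprotein E, came nearest. Its values were 109 and 108 in control against 262 and 190.2 in Eif5 cKO. Both knockout libraries were well above both controls. Its log2 fold change of 1.04 had an SE of 0.27 (95% interval 0.49 to 1.59), with an adjusted p of 0.062 by limma, and 0.0094 without Eif5 cKO replicate 2. Over the other alternatives it ranged from 0.051 to 0.513. Mylip, a ubiquitin ligase that degrades lipoprotein receptors, had values of 28.6 and 29.8 in control against 4.54 and 22.4 in Eif5 cKO, from 90 reads (-1.41, SE 0.69, adjusted p = 0.464 by limma and 0.047 without Eif5 cKO replicate 2). Its difference rested mostly on Eif5 cKO replicate 1.

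In the branches that use isoprenoids for prenylation, dolichol and ubiquinone, limma, edgeR, DESeq2 and limma-voom called 0 of 11 genes. By limma, 0.678% of all tested genes were called. An unadjusted p under 0.05 was met by 0 of the 11 and by 10.6% of all tested genes. Groups stood apart for 4 genes higher and 3 lower in Eif5 cKO, against 20% and 20.9% of all tested genes. The median log2 fold change was -0.025. The median turned positive on leaving out replicate 2 of either group (control 0.19, Eif5 cKO 0.068). It was -0.16 and -0.13 on leaving out replicate 1 of control or of Eif5 cKO, and -0.44 with Sertoli scaling. The smallest p-values were those of the prenyltransferase subunits Fnta (log2 fold change 0.33, SE 0.24, limma adjusted p = 0.670) and Pggt1b (-0.37, SE 0.31, adjusted p = 0.725). Fatty acid synthesis, the companion pathway under SREBP-1, had 0 of 12 tested genes called by these 4 tools and 0 at an unadjusted p under 0.05. The shares of all tested genes to set beside these counts are the same. Groups stood apart for 2 genes higher and 0 lower in Eif5 cKO. The median log2 fold change was 0.038. It lay between 0.047 and 0.14 with a library left out, the highest without control replicate 2, and at -0.0074 with library totals and -0.38 with Sertoli scaling. Scd2, a fatty acid desaturase, had 916 and 958 in control against 1122 and 1379 in Eif5 cKO (0.41, SE 0.23, limma adjusted p = 0.543), and the desaturase Fads2 had a log2 fold change of 0.30 (SE 0.23, adjusted p = 0.699).

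Several germ cell markers were called lower, against 0.604% of all tested genes. Of 12 tested meiotic prophase genes, limma called 9 lower, and fewer when a control library was left out. All 12 had both knockout libraries below both controls, as for 20.9% of all tested genes. Over the 15 genes of the list with values, tested or not, the sum was 3660 to 3962 in control and 1327 to 1555 in Eif5 cKO. Meiob, Spo11 and Msh4 were not tested and were at 0 in at least 1 knockout library. Sycp3 (721.7 ± 71.9 to 307 ± 88.0, SD, n = 2 each) and Tex11 (711 ± 63.2 to 296 ± 21.7) passed, but neither did so without control replicate 1 or without control replicate 2 (limma adjusted p = 0.052 to 0.131), and Sycp3 also missed the threshold without Eif5 cKO replicate 1 (0.062). Of 11 pan-germ-cell genes, limma called 5 lower, and fewer when any library was left out. All 11 had both knockout libraries below both controls. Their sums were 5479 to 5787 in control and 2581 to 2864 in Eif5 cKO. Tex101 (log2 fold change -1.99) and Dazl (-1.14) were among the 5 called. Dazl missed the threshold when any library but Eif5 cKO replicate 2 was left out (limma adjusted p = 0.063 to 0.439). Of 8 genes of differentiating spermatogonia, limma called 2 lower, a count that changed with the library left out. The log2 fold change was negative for 7 of the 8. Of the 2 with the highest mean value, the stem cell factor receptor gene Kit had a log2 fold change of -0.48 (limma adjusted p = 0.431), and the cyclin gene Ccnd2, the 1 positive gene of the list, had 0.38 (adjusted p = 0.580). These lists were assembled with earlier results of the same libraries known, and their direction is not independent evidence.

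Leydig cell markers, a list of steroid-synthesis genes, the hormone gene Insl3 and the receptor genes Lhcgr and Prlr, had 0 of 9 tested genes called by limma, edgeR, DESeq2 or limma-voom, 5 at an unadjusted p under 0.05, which 10.6% of all tested genes met, and a median log2 fold change of 0.69. The median was 0.28 without control replicate 1 and 0.27 with Sertoli scaling. Over all 10 genes of the list, tested or not, the sum was 1780 to 2314 in control and 2911 to 3263 in Eif5 cKO, with no marker at 0. Cyp17a1, the steroid 17-alpha hydroxylase, had values of 448 and 836 in control against 1422 and 720 in Eif5 cKO, and Hsd3b1, a steroid dehydrogenase, had 419 and 464 in control against 357 and 636 in Eif5 cKO. Neither passed (limma adjusted p = 0.272 and 0.918), although Cyp17a1 did without Eif5 cKO replicate 2 (adjusted p = 0.0078). Leaving out that library, 3 Leydig genes were called higher, and without Eif5 cKO replicate 1, 1 was. The Sertoli cell list had 1 of 18 tested genes called higher (Hsd17b1, a steroid dehydrogenase, named after its value was seen), 2 when Eif5 cKO replicate 2 was left out and 0 when any of the other libraries was. Of all tested genes, 0.0744% were called higher. In the Sertoli list 7 genes had an unadjusted p under 0.05. The log2 fold change was positive for 16 and negative for 2, named for that: Gata1 (-0.75, groups apart) and Wt1 (-0.19). The list had a median of 0.38 (0.25 without control replicate 1, 0.24 without Eif5 cKO replicate 1). Over all 20 genes of the list, tested or not, the sums were 67377 to 92514 in control and 92161 to 125967 in Eif5 cKO. Most of this was Clu, a secreted chaperone (log2 fold change 0.43, limma adjusted p = 0.816). The protease gene Ctsl had 0.47 (adjusted p = 0.686). The macrophage list had 0 of 10 called by the same 4 tools, 2 at an unadjusted p under 0.05, and a median of 0.45 (0.027 with Sertoli scaling). The mannose receptor gene Mrc1 had a log2 fold change of 0.51 (limma adjusted p = 0.389) and the growth factor receptor gene Csf1r 0.19 (adjusted p = 0.853), the smallest of the list. Among lists with no called gene, the medians were -0.089 for 10 genes of undifferentiated spermatogonia, -0.19 for 8 peritubular myoid genes, 0.037 for 8 endothelial genes, 0.21 for 8 stromal genes and 0.51 for 4 erythroid genes. With a library left out they ran from -0.32 to 0.0087, -0.34 to 0.048, -0.33 to 0.37, 0.092 to 0.41 and 0.062 to 0.86 in that order. Of the adipocyte list 2 genes were tested, Plin1 (log2 fold change -0.0040) and Fabp4 (1.68, from 1 read in control replicate 1), and no direction was read from them. The part of these marker values in the enzyme values was not tested.

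**Figure D5:**
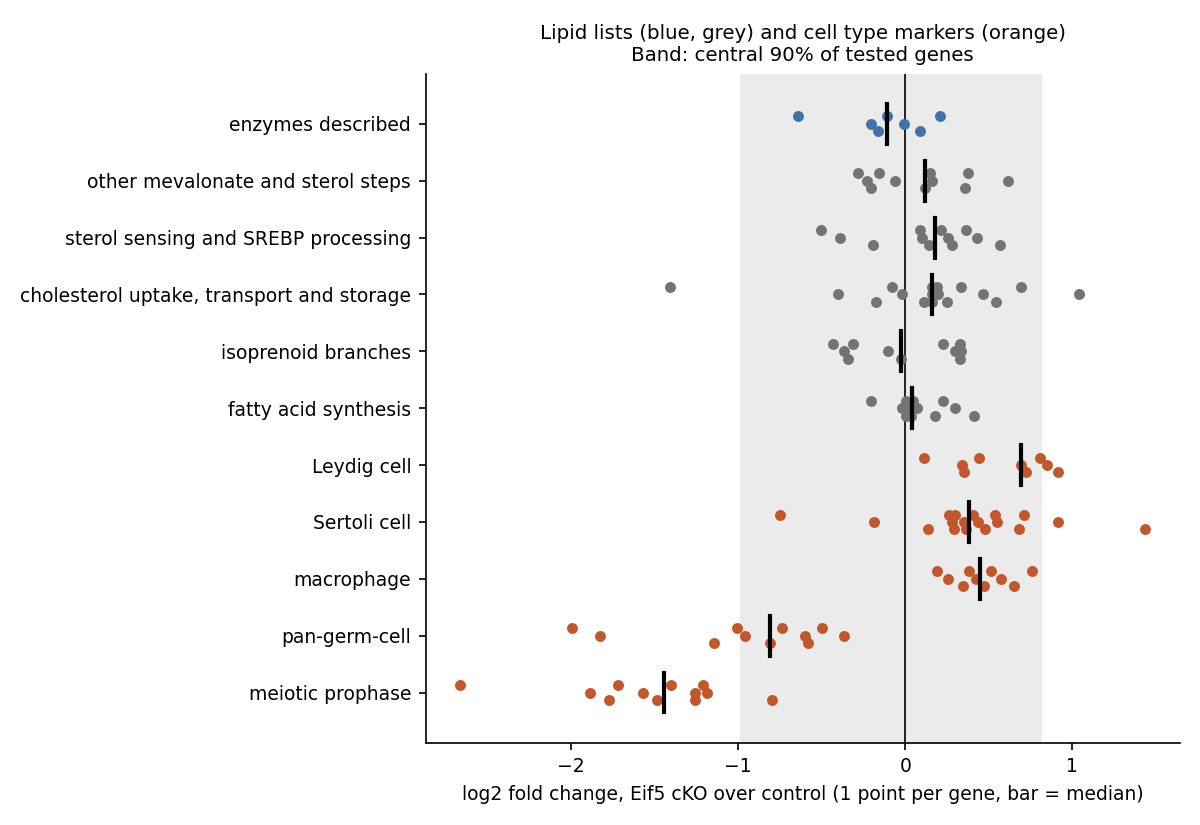
Log2 fold change of Eif5 cKO over control (x axis, 1 point per tested gene, black bar for the median) for the enzymes (blue), other lipid lists (grey) and cell type markers (orange); the band covers the central 90% of tested genes, -0.98 to 0.81. The 7 enzymes lie inside the band around a median of -0.11, while the meiotic prophase genes lie around -1.44.

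The size of the enzyme median and the signs of some enzymes depended on what the libraries were scaled to. That median was negative with the deposited scaling (-0.11), with library totals (-0.15) and with upper-quartile factors (-0.099). With scaling on Sertoli cell genes, which assumes that these stayed level, the median of all tested genes was -0.41, all 7 enzymes were negative, and their median was -0.53. Relative to all genes the enzyme median was then -0.11, as with the deposited scaling. That agreement was fixed beforehand, since rescaling the libraries shifts all genes by nearly the same amount. No enzyme passed under this scaling, and the smallest limma adjusted p was 0.193, for Lss.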

How the data were processed

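Ribosome footprints were prepared from testes with a kit, per the labels' protocols. The submitters' processing notes list Bowtie2, STAR, featureCounts and GRCm38 with no version; neither strand nor multi-mapping settings are stated there. The deposited columns are named raw counts but hold a normalized signal: each value is a whole number of reads divided by 1 divisor per library (0.871 to 1.23), equal to the median-of-ratios size factor. Whole reads were recovered for 100% of values (relative tolerance 1e-06). No row lacked a gene name.

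limma 3.58.1 (R 4.3.3) with an intensity trend was fitted to group alone on log2(value + 1), over 12095 genes that passed edgeR 4.0.16's filterByExpr (minimum count 10). Low values make changes look smaller on this scale. All tests are two-sided, with Benjamini-Hochberg adjustment over all tested genes. edgeR, DESeq2 1.42.0 and limma-voom were run on the recovered reads, and all were tested on simulated data. Values are per gene and not per length, so levels were compared between libraries, not between genes. Promoter windows and coordinates came from RefSeq (GRCm38.p6).

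The members and all gene lists were chosen with earlier results of these data known. Named were the 8 enzymes, Eif5, called genes or otherwise the 2 with the smallest p of each pathway list among genes reported here, the 2 markers with the highest mean value of the Leydig, Sertoli, macrophage, pan-germ-cell, differentiating spermatogonia and meiotic lists, and the 5 genes closest in profile among those with at least 50 reads on average. Other names are marked, or are genes that overlap a member, markers at 0 or genes that describe a list. Some genes of these lists are not reported here and were left out of the counts, medians and shares of lists. RNA libraries were not analysed here.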

Additional observations from a re-analysis of the deposited data

How the results depend on the processing

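The 16 alternatives were other tools, scalings, pseudocounts and filters, a replicate block, and each library left out. Over them, 98 of 111 enzyme values kept their sign. Part of that agreement was fixed beforehand, since the replicate block and the filters leave the fold change of a gene as it is. Pseudocounts hardly moved it. With all libraries kept, 0 enzymes were called in each alternative. The count of genes called was 206 with scaling on the Sertoli list, where the enzyme median was -0.53, and between 10 and 346 with a library left out, where that median ran from -0.16 to 0.088; the cause was not tested. Whether equal replicate numbers pair the samples is not known, since no label ties them. The correlation of deviations between control replicate 1 and Eif5 cKO replicate 1 was -0.047, which cannot settle this with 2 libraries per group. The replicate block called 100 genes and 0 enzymes. Signs that turned were all of values that did not pass. With Sertoli scaling these were Hmgcs1 (-0.33), Cyp51 (-0.21), Fnta (-0.093), Scd2 (-0.014), Fads2 (-0.12), Hsd3b1 (-0.31), Ccnd2 (-0.042) and Csf1r (-0.23). Dhcr7 was 0.0032 in DESeq2 and 0.0030 with upper-quartile factors. With a library left out, values ran from -0.16 to 0.34 for Hmgcs1, -0.92 to 0.51 for Fdps, -0.39 to 0.17 for Fdft1, -0.34 to 0.0062 for Sqle, -0.18 to 0.17 for Dhcr7, -0.31 to 0.53 for Hsd3b1, -0.037 to 0.41 for Csf1r, -0.22 to 0.046 for Scamp2, -0.23 to 0.077 for Cenpp, -0.21 to 0.078 for Anxa2, -0.26 to 0.041 for Rlim and -0.26 to 0.057 for Myo1d. In these fits a lone library is assumed to vary like the other group. Idi1 and Fdps rested on 25 and 44 reads.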
